A study of Mus musculus with 18 samples.

Results

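The genes described here build and feed the DNA replication fork. The 39 members were taken from a list of gene names: 12 genes of the replicative helicase and its activation, 3 of origin licensing, 6 of the sliding clamp and its loader, 8 of the replicative polymerases and primase, 5 of single strand binding and Okazaki fragment processing, 4 of deoxynucleotide supply and 1 of chromatin assembly. Of the 55385 genes in the count table, 18634 passed the filter on low counts, and 39 of the 39 members were among them. Poly(A) RNA was sequenced from the spleens of 18 mice that the series calls adult, 6 of each of 3 genotypes, with 3 males and 3 females per genotype. WT mice were wild-type C57BL/6J. Dp16 mice, a model of trisomy 21, carry an additional copy of the mouse chromosome 16 interval from Lipi to Zbtb21. Dp16_2xIFNRs mice carry the same additional interval, but Ifnar1, Ifnar2, Ifngr2 and Il10rb, which encode 4 interferon receptor chains, are at 2 copies, so both Dp16 groups share the other extra genes. The labels give no treatment, and the age label, given under a tag of days post conception, ran from 17.1 to 18 with a unit that is not interpreted here. Replicates are numbered samples, and p-values measure the spread between them.

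Replication starts where the origin recognition complex, Cdc6 and Cdt1 load the MCM ring onto DNA. Cdc45 and the GINS complex then turn the ring into the active helicase, primase and the polymerases copy the unwound strands, and the PCNA clamp, placed by replication factor C, holds the polymerases on DNA. Ribonucleotide reductase, thymidylate synthase and thymidine kinase supply the deoxynucleotides. Many of these genes are transcribed mainly in cells that enter S phase, and in a mouse spleen such cells include dividing lymphocytes and the erythroid and myeloid precursors of the red pulp, since the mouse spleen remains a blood-forming organ. None of the 39 members lies in the extra interval (chr16:75540514-97962622, GRCm38). Cdc45 (chr16:18780447-18811987), Mcm4 (chr16:15623897-15637400) and Rfc4 (chr16:23113943-23127737) are on the same chromosome outside it, so no member is among the genes with an additional copy.

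Because E2F factors are known regulators of many of these genes, their promoters were read for E2F-type letters, to show what the members share in sequence apart from their function. The window was the 250 bases before each RefSeq start (GRCm38.p6), and the letters were TTTCCCGC, TTTGGCGC, TTTCGCGC or TTTGCCGC on either strand, with overlaps allowed. A promoter was matched for 32 of the 39 members, and 8 of these 32 (25%) held the letters, against 2.16% of 27025 genes read the same way. The 8 were Mcm5, Mcm6, Mcm7, Gins3, Cdc6, Orc1, Rfc3 and Pola1. Stretches of 80 bases that end before the start are shown for 3 members with the letters and for 2 members of nucleotide supply without them, 5′ to 3′ on the gene's strand, with the E2F-type letters in capitals.
Mcm5, chr8:75109308-75109387, plus strand: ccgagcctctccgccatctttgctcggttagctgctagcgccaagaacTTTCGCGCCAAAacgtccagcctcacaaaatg
Mcm6, chr1:128359725-128359804, minus strand: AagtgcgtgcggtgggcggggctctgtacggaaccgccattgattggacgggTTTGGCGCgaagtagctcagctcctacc
Pola1, chrX:93632266-93632345, minus strand: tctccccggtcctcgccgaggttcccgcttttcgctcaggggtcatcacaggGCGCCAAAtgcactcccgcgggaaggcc
Tyms, chr5:30073626-30073705, minus strand: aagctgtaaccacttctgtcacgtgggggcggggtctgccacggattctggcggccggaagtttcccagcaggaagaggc
Rrm1, chr7:102441615-102441694, plus strand: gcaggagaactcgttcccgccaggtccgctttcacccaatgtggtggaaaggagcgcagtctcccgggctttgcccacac
In Mcm5 a TTTCGCGC and a TTTGGCGC on opposite strands overlap. The Mcm6 stretch holds 1 separate TTTGGCGC, and the single capital at its left end is the last base of an overlapping pair further upstream. In Pola1 the site lies on the opposite strand and begins at position -138 from the start. Tyms and Rrm1 had no exact match to these letters in the 250 bases. The Rrm1 stretch holds ttcccgc, which lacks only the first T of TTTCCCGC, and such near matches were not counted. CCAAT, the letters bound by the factor NF-Y, was in 21 of the 32 member promoters (65.6%) against 37.5% of genes, and the letters TTTGAA or TTTAAA, known as the CHR element of cell cycle genes, were in 7 of 32 (21.9%) against 28.1%. A match is a description of the letters and was not tested as a binding site. In Dp16 vs WT the 8 members with E2F-type letters had a median log2 fold change of 0.84, and the 24 with a promoter but without the letters had 0.92.

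Library totals ran from 33998427 to 53021480 counts, and no member had a library without counts. Levels are given as CPM, counts scaled to a common library size, and as RPKM, which also divides by gene length, where genes are compared with each other. Between 0.691% and 5.51% of counts fell on Gm42418, a model over ribosomal RNA, over 4% in 4 libraries (WT 4, Dp16 2, Dp16 3 and Dp16_2xIFNRs 5). B cell, T cell and red pulp macrophage markers were read, and none of these 28 genes was at 0 in all libraries. All of them had passed the filter on low counts, so this does not test the tissue label.

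Both Dp16 genotypes had higher RNA levels than WT for nearly all of the 39 listed members. In Dp16 vs WT, 37 of 39 members rose and none fell, with a median log2 fold change of 0.90 (1.87-fold) and 12 members more than 2-fold higher, while the median over all 18634 genes was -0.01. The test was edgeR's quasi-likelihood test, called at an adjusted p below 0.05 over all genes tested, a rule that called 16.6% of all genes higher and 13.2% lower. In Dp16_2xIFNRs vs WT, 37 of 39 rose and none fell, with a median of 0.92 and 14 more than 2-fold higher, where the rule called 17.3% of all genes higher and 14.2% lower. These comparisons share the WT libraries. Pold1 and Rfc1 were the 2 members that were not called in either. Whether more cells that replicate or more RNA per cell lay behind a higher level cannot be told apart in whole tissue.

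**Figure D1:**
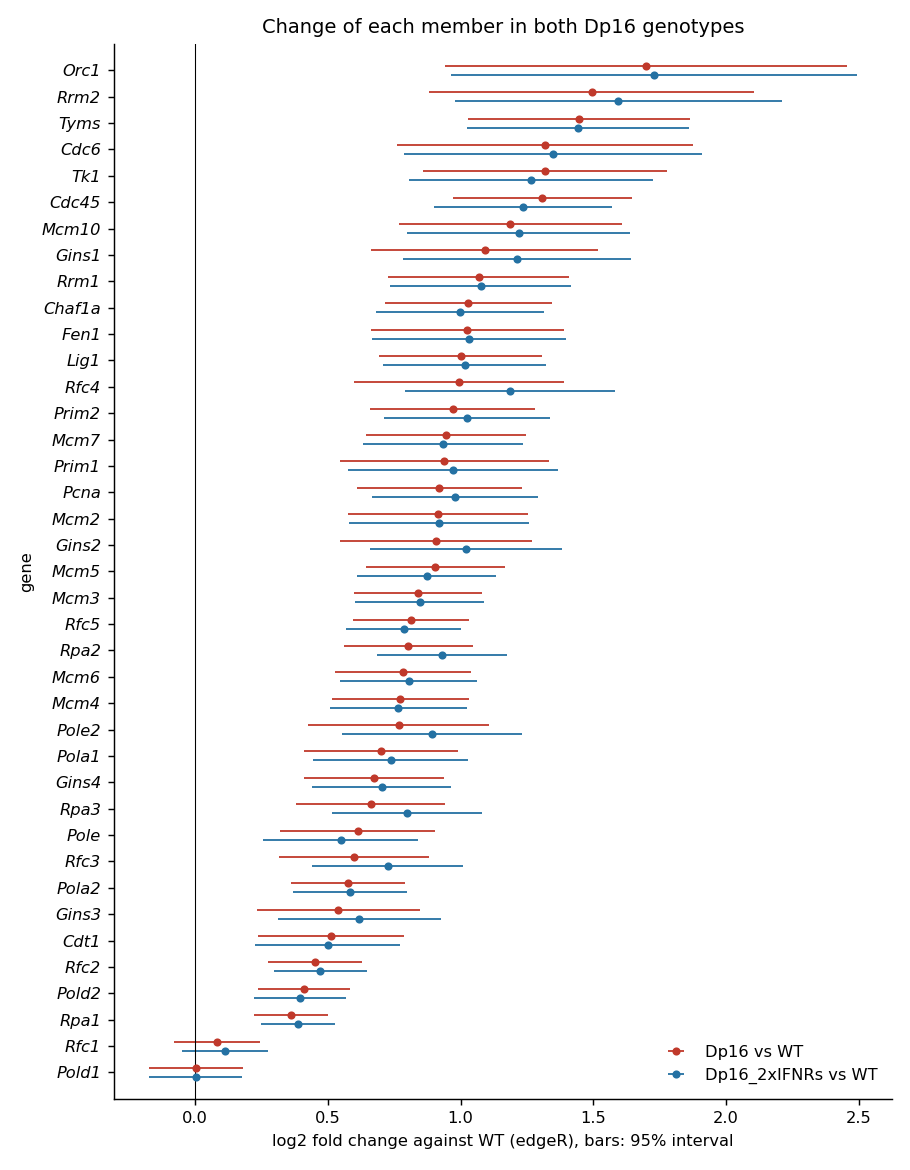
Log2 fold change against WT (horizontal axis, edgeR) of each of the 39 members (rows), with bars for the 95% interval, in Dp16 (red) and Dp16_2xIFNRs (blue). Rows run from Orc1 at 1.70 down to Pold1 at 0.00 in Dp16, and the intervals of Rfc1 and Pold1 cross 0 in both genotypes.

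Gene lists chosen for blood precursors moved with the members. All 16 erythroid markers (such as Klf1 and Gata1) rose in Dp16 vs WT, with a median log2 fold change of 1.68. Their summed RPKM was 6044 to 19286 in WT, 19696 to 37321 in Dp16 and 19747 to 39680 in Dp16_2xIFNRs. The globin genes Hbb-bs and Hba-a1 are in this list, so the sum does not measure precursors alone. All 12 genes of the neutrophil precursor list (such as Elane and Mpo) rose, with a median of 2.68. Their summed RPKM was 613 to 2509 in WT, 3787 to 13269 in Dp16 and 4432 to 7251 in Dp16_2xIFNRs. This list also holds Ltf, Camp, Ngp, Chil3, S100a8 and S100a9, so its sum and score do not measure dividing precursors alone. All 8 megakaryocyte markers also rose, with a median of 1.17. All 10 B cell markers fell, with a median of -0.67. Of 8 germinal centre markers, 3 rose and 1 fell. The summed RPKM of 8 plasma cell markers was 862 to 1795 in WT (median 1062), 1241 to 1824 in Dp16 (median 1546) and 1421 to 2209 in Dp16_2xIFNRs (median 1763). In the same order, the sum was 627 to 864 (median 767), 630 to 752 (679) and 566 to 751 (678) for T cell markers. For red pulp macrophage markers it was 1229 to 1776 (median 1464), 1273 to 1931 (1525) and 1440 to 1602 (1495). Of 14 mitosis genes such as Ccnb1 and Plk1, which mark dividing cells, 14 rose with a median of 1.22. When the erythroid score (mean log2 CPM of its markers) was added to the edgeR fit, no member was called in Dp16 vs WT (4 of 39 at an unadjusted p below 0.05), the members' median fell from 0.90 to 0.19 at a median standard error of 0.14, against 0.15 without the score, and 34 of 39 stayed positive. That fit called 83 of all 18634 genes higher and 11 lower, and 1967 of them had an unadjusted p below 0.05. With the neutrophil score no member was called either (0 of 39 at an unadjusted p below 0.05), with a median of 0.39 and a median standard error of 0.46. The fit with this score called 0 of all 18634 genes higher and 0 lower, and 852 had an unadjusted p below 0.05. The absence of calls was thus not particular to the members. The scores differ between the genotypes themselves, and the part of the precursors in the members' rise was not tested beyond these fits.

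Among the helicase genes, 12 of 12 rose in both comparisons with WT, with medians of 0.91 and 0.90. Cdc45, the factor that completes the active helicase, had 13.2, 22 and 35.7 CPM as the lowest, median and highest WT library. In Dp16 it had 43.4, 52.8 and 64.4 CPM, and in Dp16_2xIFNRs 42.4, 50.8 and 65.6 CPM. The highest WT library thus lay below the lowest library of either Dp16 genotype. Cdc45 was 2.48-fold higher in Dp16 (95% interval 1.96 to 3.13, edgeR adjusted p = 2.14e-05) and 2.35-fold higher in Dp16_2xIFNRs (adjusted p = 3.75e-05). The 6 subunits of the MCM ring moved within a narrow band: their log2 fold changes in Dp16 vs WT were 0.92 (Mcm2), 0.84 (Mcm3), 0.77 (Mcm4), 0.90 (Mcm5), 0.78 (Mcm6) and 0.94 (Mcm7). Mcm7, the ring subunit with the highest RPKM, had 86.1, 136 and 210 CPM in WT and 239, 258 and 316 CPM in Dp16, without overlap. Mcm10, which helps to activate the loaded ring, rose by 1.19 ± 0.20 (log2, SE) from a WT median of 15.8 CPM to 41.7 CPM in Dp16.

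The 4 GINS genes were less uniform. Gins1 rose by 1.09, Gins2 by 0.91, Gins4 by 0.68 and Gins3 by 0.54 on the log2 scale in Dp16. Gins3 had the largest p among the called members in Dp16 vs WT (edgeR adjusted p = 0.00821), and its adjusted p was 0.00285 in Dp16_2xIFNRs vs WT. Its WT libraries held 9.55, 11.2 and 12.0 CPM, its Dp16 libraries 10.1, 17.0 and 19.8 CPM, and its Dp16_2xIFNRs libraries 12.6, 16.7 and 22.1 CPM. One Dp16 library overlapped WT, while the Dp16_2xIFNRs libraries all lay above it. Gins3 was not called in Dp16 vs WT in 3 other fits. With a code that some samples share in their description label as a block, it had 0.54 (edgeR adjusted p = 0.13). On omission of the 4 Gm42418-rich libraries it had 0.52 (edgeR adjusted p = 0.0514), and with limma-trend on RPKM 0.39 (adjusted p = 0.0527). Only the code c930 was shared by a WT and a Dp16 library, so the block fit compares these genotypes largely through other codes. A library with a code of its own adds nothing to it.

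Of the 3 licensing genes, 3 rose in each comparison with WT, and they spanned the widest range. Orc1, the subunit of the origin recognition complex whose level is known to follow the cell cycle, changed most of all members. It had 2.47, 6.49 and 17.8 CPM in WT, 19.7, 23.1 and 31.0 CPM in Dp16 and 15.4, 23.1 and 33.6 CPM in Dp16_2xIFNRs. Its fold change in Dp16 was 3.25 with a wide interval of 1.92 to 5.49 (edgeR adjusted p = 0.00212). Orc1 also had the widest spread among WT libraries, and its highest WT library overlapped Dp16_2xIFNRs but not Dp16. Cdc6, the loader that recruits the ring, had 14.9, 30.5 and 62.7 CPM in WT against 65.9, 77.4 and 101 CPM in Dp16 and 56.7, 71.3 and 116 CPM in Dp16_2xIFNRs, a rise of 2.50-fold and 2.55-fold (adjusted p = 0.00147 and 0.00118). Cdt1, the other loader, which is degraded once S phase begins, rose less, by 0.51 ± 0.13 on the log2 scale, from a WT median of 71.2 CPM to 96.7 CPM. Cdt1 overlapped WT in both Dp16 genotypes and was not called in Dp16 vs WT once the 4 Gm42418-rich libraries were omitted (adjusted p = 0.0686).

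The clamp and its loader gave 5 of 6 members higher in each comparison with WT. Pcna, the sliding clamp, was the most abundant member per length, with a mean RPKM of 120 in WT, 208 in Dp16 and 216 in Dp16_2xIFNRs, and rose 1.89-fold in Dp16 (adjusted p = 0.000196). Rfc5, a small subunit of the loader, had the smallest p of the group. It had 24.1, 29.8 and 42.9 CPM in WT, 48.8, 53.2 and 56.5 CPM in Dp16 and 44.1, 50.2 and 67.9 CPM in Dp16_2xIFNRs, with no overlap, and rose 1.76-fold (1.51 to 2.04) in Dp16 (adjusted p = 2.07e-05). Rfc4 rose by 0.99, Rfc3 by 0.60 and Rfc2 by 0.45 on the log2 scale. Rfc1, the large subunit, stood apart: 74.3, 87.5 and 97.2 CPM in WT, 79.6, 94.7 and 98.5 CPM in Dp16 and 80, 94.5 and 101 CPM in Dp16_2xIFNRs. All 3 genotypes overlapped, and the fold change in Dp16 was 1.06 with an interval of 0.947 to 1.19 (adjusted p = 0.469).

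Among the polymerases and primase, 7 of 8 rose in each comparison with WT, with medians of 0.66. Prim2, the large primase subunit, had 16.9, 23.3 and 34.4 CPM in WT, 37.4, 47.7 and 54.6 CPM in Dp16 and 36.3, 46.7 and 71.4 CPM in Dp16_2xIFNRs. The lowest library of each Dp16 genotype lay above the highest WT library, and the rise was 1.96-fold in Dp16 (adjusted p = 0.000108). Prim1, the catalytic primase subunit, rose by 0.94, and the polymerase alpha genes Pola1 and Pola2, which extend the primers, by 0.70 and 0.58. Pole and Pole2 of polymerase epsilon, the leading strand enzyme, rose by 0.61 and 0.77. Polymerase delta, the lagging strand enzyme, was mixed: Pold2, an accessory subunit, rose by 0.41 ± 0.08, while Pold1, its catalytic subunit, had 90.6, 99.5 and 113 CPM in WT, 89.7, 98.5 and 113 CPM in Dp16 and 91.0, 96.6 and 126 CPM in Dp16_2xIFNRs. The 3 genotypes overlapped fully for Pold1, with a fold change of 1.00 and an interval of 0.888 to 1.13 in Dp16 (adjusted p = 0.981). Its sign turned in 14 of 34 other fits without a score term. On the RPKM scale (limma-trend) it was -0.11, where the median over all genes was -0.13. Pole was not called in Dp16 vs WT on omission of the Gm42418-rich libraries (0.42, adjusted p = 0.0643), nor Pold2 with the description code as a block (0.40, adjusted p = 0.0785).

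All 5 genes of single strand binding and Okazaki fragment processing rose in both comparisons with WT. Rpa2, the middle subunit of the single strand binding complex RPA, had 31.5, 33.9 and 54.5 CPM in WT, 56.1, 62.9 and 80.6 CPM in Dp16 and 61.4, 68.1 and 90.7 CPM in Dp16_2xIFNRs. No Rpa2 library of a Dp16 genotype overlapped WT, and the rise was 1.75-fold and 1.91-fold (adjusted p = 6.04e-05 and 1.81e-05). Rpa3 rose by 0.66 in Dp16, and Rpa1, the large subunit, by 0.36, the smallest called change of the members. Fen1, the nuclease that trims Okazaki fragments, rose 2.04-fold from a WT median of 67.9 CPM, and Lig1, the ligase that joins them, 2.00-fold from 81.2 CPM.

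The nucleotide supply genes had the highest median of the role groups, 1.38 in Dp16 and 1.35 in Dp16_2xIFNRs, and 4 of 4 rose. Tyms, thymidylate synthase, had 12.2, 22.1 and 41.4 CPM in WT, 49.7, 62.4 and 87.2 CPM in Dp16 and 52.1, 60.2 and 89.3 CPM in Dp16_2xIFNRs. No Dp16 or Dp16_2xIFNRs library fell as low as the highest WT library, and the rise was 2.72-fold (2.04 to 3.64) in Dp16 (adjusted p = 7.74e-05). Rrm2, the small subunit of ribonucleotide reductase that is known to be made in S phase, had 52.7, 121 and 275 CPM in WT and 298, 378 and 430 CPM in Dp16, a rise of 2.82-fold (1.84 to 4.30). Rrm1, the large subunit, rose 2.1-fold, and Tk1, the thymidine kinase of dividing cells, 2.49-fold. Chaf1a, the large subunit of chromatin assembly factor 1, which places histones behind the fork, had 23.7, 35.9 and 60.2 CPM in WT, 58.1, 72.9 and 99.5 CPM in Dp16 and 65.1, 70.9 and 83.5 CPM in Dp16_2xIFNRs. Chaf1a rose 2.04-fold in Dp16 (adjusted p = 8.59e-05), although 1 WT library lay above the lowest Dp16 library.

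**Figure D2:**
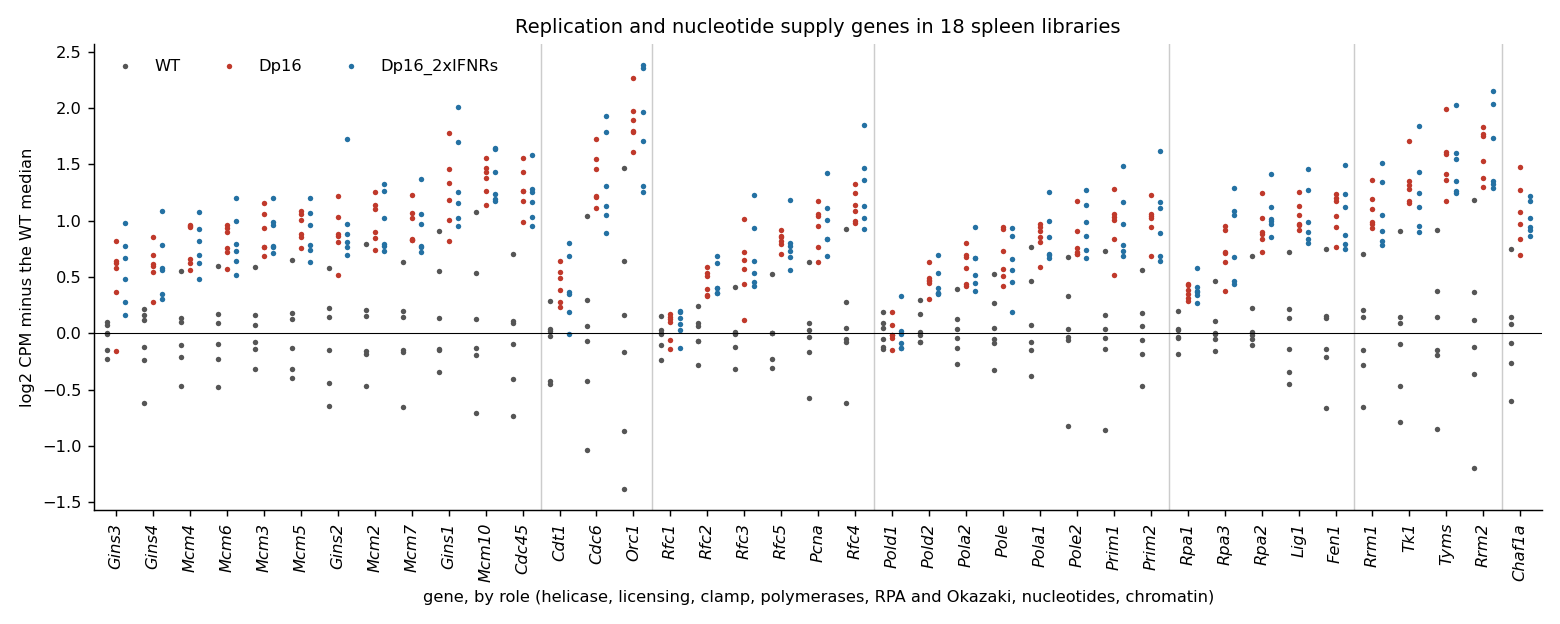
Log2 CPM of every library minus the WT median (vertical axis) for the 39 members, grouped by role between grey lines and ordered within a role by the change in Dp16. Grey, red and blue points are the 6 WT, 6 Dp16 and 6 Dp16_2xIFNRs libraries; the groups part for most genes, 1 WT library lies high, and Rfc1 and Pold1 lie near 0 in all 3 genotypes.

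The proportions of subunits within a complex were read as each gene's share of the summed RPKM of its complex, a ratio that no library scaling can move. Shares in the MCM ring were close between genotypes: Mcm7 took 20.2% ± 1.17 (SD, n = 6) of the ring in WT, 21.3% ± 0.518 in Dp16 and 21.2% ± 0.845 in Dp16_2xIFNRs, and Mcm4 took 14.7%, 13.7% and 13.8%. In replication factor C the Rfc1 share was 25.7% ± 3.34 in WT (21.8% to 31.1%), 18.4% ± 1.86 in Dp16 (16.7% to 21.9%) and 17.9% ± 2.39 in Dp16_2xIFNRs (14.2% to 20.3%), and the Rfc4 share was 15.3%, 21.0% and 22.5%. For the Rfc1 share the ranges of WT and Dp16 met at their ends, and WT and Dp16_2xIFNRs did not overlap. Rrm2 took 60.5% ± 5.53 of the reductase sum in WT, 68.4% ± 1.68 in Dp16 and 69.6% ± 1.55 in Dp16_2xIFNRs, and the Rpa1 share of RPA went from 38.1% to 32.4% and 31.0%. In each of these 2 complexes the highest WT library reached into the range of the Dp16 genotypes for Rrm2, and the lowest WT library did so for Rpa1. These shares are descriptions and were not tested.

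**Figure D3:**
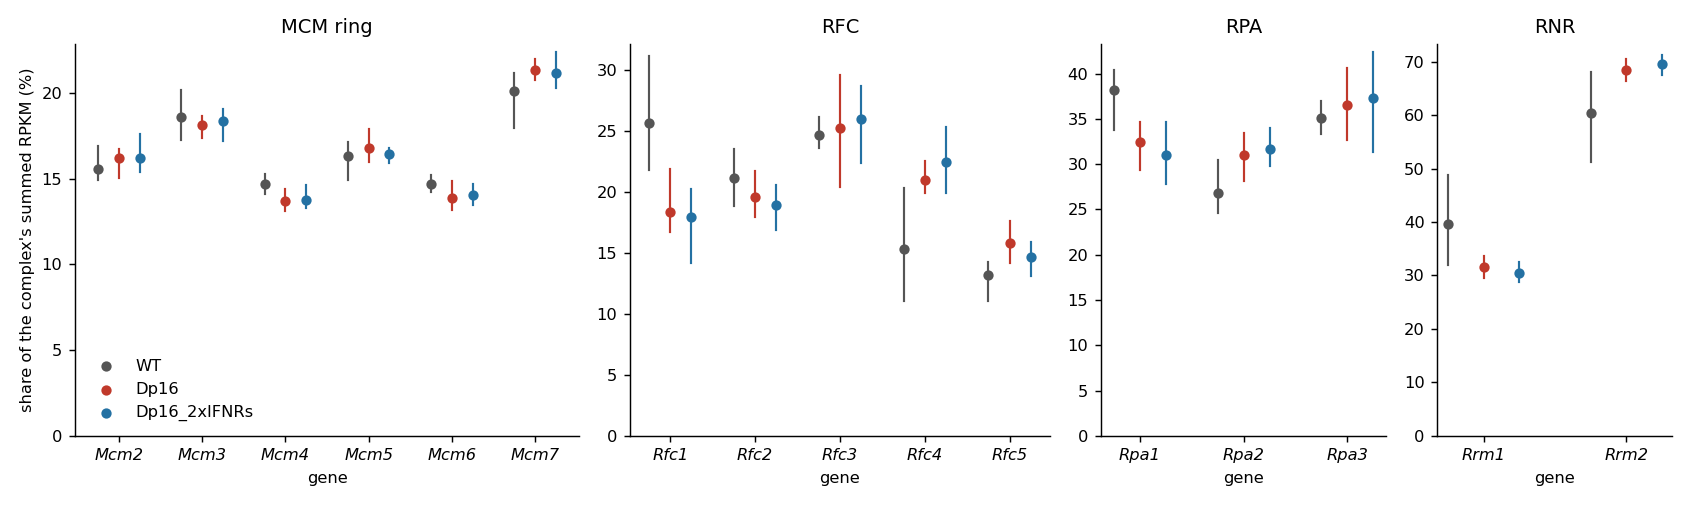
Share of the summed RPKM of a complex taken by each subunit (vertical axis, percent) for the MCM ring, replication factor C (RFC), RPA and ribonucleotide reductase (RNR). Points are the means of 6 libraries and bars run from the lowest to the highest library; the MCM shares stay close between genotypes, while Rfc1 goes from 25.7% to 18.4% and Rrm2 goes from 60.5% to 68.4% in Dp16.

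Returning the 4 interferon receptor genes to 2 copies was not accompanied by a detected change of any member. In Dp16_2xIFNRs vs Dp16, 0 of 39 members were called by edgeR, 0 of 39 had an unadjusted p below 0.05, and DESeq2, limma voom and limma-trend called 0 as well. In that comparison the rule called 0% of all genes higher and 0.0215% lower, and 438 of 18634 genes had an unadjusted p below 0.05. The members' differences had a median of 0.02 on the log2 scale and ran from -0.07 (Cdc45) to 0.19 (Rfc4). The 95% interval of the difference was -0.40 to 0.26 for Cdc45, -0.24 to 0.19 for Rfc5, -0.41 to 0.40 for Tyms and -0.70 to 0.76 for Orc1. For Orc1 a difference of 1.5-fold in either direction is thus within the interval, while for Rpa1 the interval was -0.11 to 0.16.

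The libraries of a genotype moved together across the members. Among WT libraries, replicate 2 was the highest for 37 of 39 members, with a median level 1.55 times the WT median, and replicate 4 was the lowest for 34, at 0.725 times. Among Dp16 libraries, replicate 3 was the highest for 31 members and replicate 2 the lowest for 22, and among Dp16_2xIFNRs libraries replicate 6 was the highest for 31. WT replicate 2 also had the highest erythroid score of its genotype, 8.26 (mean log2 CPM), and WT replicate 4 the lowest, 5.49. The germinal centre score had the same ends, 4.13 and 2.70, with WT replicate 3 (4.10) and WT replicate 1 (2.73) close to them. The neutrophil precursor score did not: it was highest in WT replicate 5 (6.35, against 6.17 in replicate 2). Its lowest value was in WT replicate 1 (3.96, against 4.55 in replicate 4). In Dp16 the erythroid score was highest in replicate 3 (9.11), but the germinal centre score in replicate 4 (4.37, against 4.34 in replicate 3). In Dp16_2xIFNRs replicate 6 was highest for neither: it had 9.14 and 4.10, against 9.33 in replicate 1 and 4.49 in replicate 4. The mean log2 CPM of the mitosis genes was highest in WT replicate 2 (6.61), Dp16 replicate 3 (7.23) and Dp16_2xIFNRs replicate 6 (7.28). The part of any of these lists in the order of the libraries was not tested. The median coefficient of variation over the members was 28.5% in WT, 12.9% in Dp16 and 18.6% in Dp16_2xIFNRs.

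In 24 of 39 members the lowest Dp16 library lay above the highest WT library, a separation found in 8.48% of all genes, and in 22 of 39 the lowest Dp16_2xIFNRs library did so, against 6.83% of all genes. WT replicate 2 set these counts. Without it, 36 of 39 members were separated in Dp16, against 12.6% of all genes, and 35 of 39 in Dp16_2xIFNRs, against 11.4%. Replicate 2 was the highest WT library for 37 of 39 members, so a rise on its omission was fixed in advance. It was chosen on the members and not on all genes, so these 2 shares are not a like comparison. The members that still overlapped were Gins3, Rfc1 and Pold1 in Dp16, and Cdt1, Rfc1, Pold1 and Pole in Dp16_2xIFNRs.

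Male and female libraries were compared over all genotypes and within each. Over all 18 libraries, male vs female called 0 of 39 members (edgeR), where the rule called 0.0537% of all genes higher and 0.204% lower in males. At an unadjusted p below 0.05 were 16 of 39 members, against 1644 of all 18634 genes. The members' median was -0.25, lower in males. Within WT, a contrast added after these values were seen, the median was -0.56, and the 3 female libraries lay above the 3 male libraries in 26 of 39 members, against 8.55% of all genes. None of the members was called within WT (edgeR, lowest adjusted p = 0.109, for Mcm10, at -0.95), where the rule called 0.0268% of all genes higher and 0.113% lower in males. At an unadjusted p below 0.05 within WT were 28 of 39 members, against 1279 of all 18634 genes. An exact permutation test of 3 against 3 libraries cannot go below a two-sided p of 0.1. The same order of sexes held for 2 of 39 members in Dp16 (Orc1 and Rfc5), against 4.67% of all genes, and for 0 of 39 in Dp16_2xIFNRs, against 3.47%, with medians of -0.11 and -0.03. The sex by genotype interaction was called for 0 of 39 members and for none of the 18634 genes. For Dp16 vs WT (median 0.44), 6 of 39 members had an unadjusted p below 0.05, against 439 of all 18634 genes. For Dp16_2xIFNRs vs WT (median 0.54) it was 16 of 39, against 745. Precursor markers were read in the same way. The neutrophil precursor score was 5.18, 6.17 and 6.35 in WT females and 3.96, 4.24 and 4.55 in WT males, without overlap, and 9 of its 12 markers were called lower in males (edgeR, median log2 difference -1.78). The erythroid score was 6.92, 7.35 and 8.26 in WT females and 5.49, 5.99 and 7.07 in WT males, where 1 male library lay above 1 female library. All 16 erythroid markers had values below 0 in males, with a median of -1.45, 13 of 16 at an unadjusted p below 0.05 and 0 called (edgeR, lowest adjusted p = 0.318). The part of either list in the members' sex difference was not tested.

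**Figure D4:**
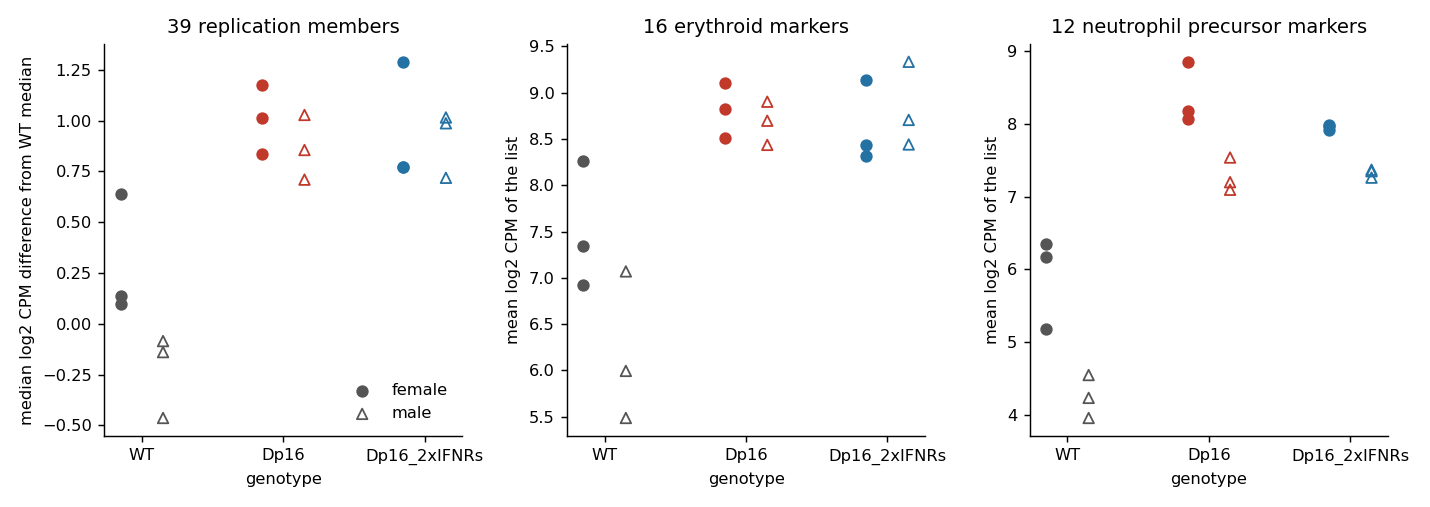
Each point is 1 library, by genotype (horizontal axis) and sex (filled circles female, open triangles male), with the median log2 CPM of the 39 members relative to the WT median at the left, and the mean log2 CPM of the erythroid and the neutrophil precursor markers in the middle and at the right. WT females lie above WT males at the left and at the right, and 1 WT female reaches 0.64 at the left, below the lowest Dp16 library at 0.71.

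Other genes of the same pathways were read from a list of 67, and 49 rose and 2 fell in Dp16 vs WT, with a median of 0.48, against 50 and 3 in Dp16_2xIFNRs vs WT. Of 37 other origin and fork genes, 30 rose and none fell in Dp16, with a median of 0.71. Chaf1b, the partner of Chaf1a in chromatin assembly, rose most (1.79, adjusted p = 2.9e-06), and it lies in the extra interval, as do Donson, a helicase loading factor (0.68), and the purine synthesis gene Gart (0.84). Rnaseh2c, a subunit of the nuclease that removes RNA from DNA, was the gene of this list outside the interval with the smallest p (0.82, adjusted p = 5.89e-06). Of 20 other deoxynucleotide and pyrimidine genes, 13 rose and 2 fell, with a median of 0.39. Dut, which clears dUTP, rose by 1.06, and Mthfd1 of the folate cycle by 0.73. Samhd1, which breaks down deoxynucleotides, fell by 0.31 (adjusted p = 0.00261), as did Tk2, the mitochondrial thymidine kinase, by 0.29. Of 10 purine synthesis genes 6 rose, with a median of 0.25, and Paics was at 0.54. Without the 3 interval genes, 46 of 64 rose, with a median of 0.44.

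**Figure D5:**
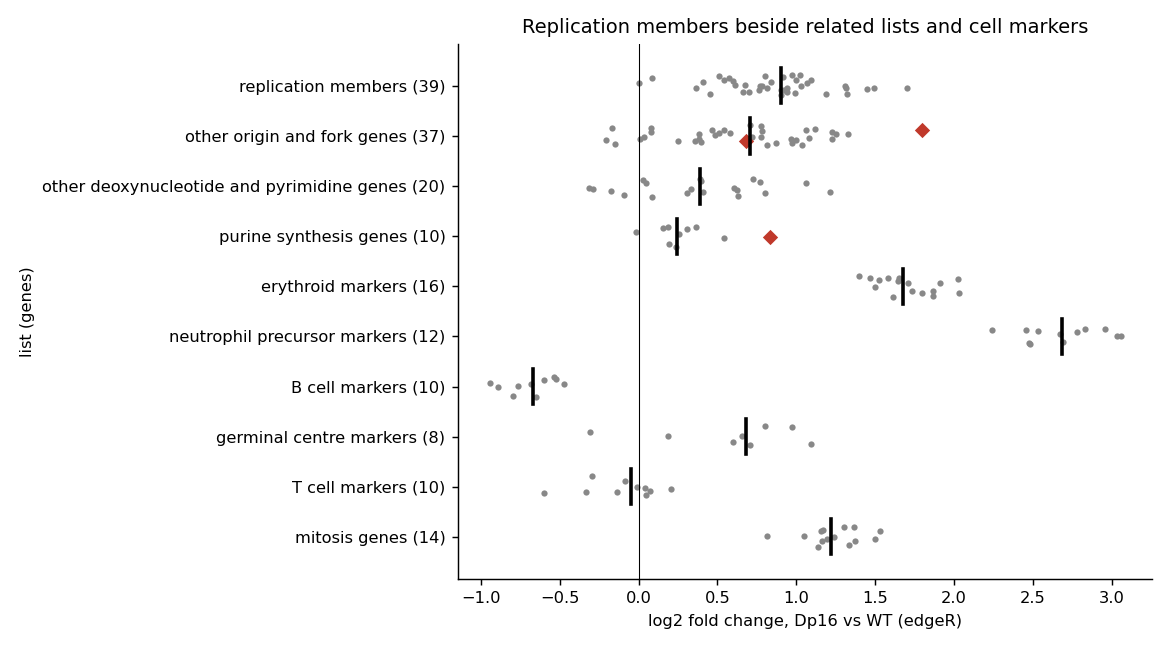
Log2 fold change in Dp16 vs WT (horizontal axis, edgeR) of each gene in the replication members, the 3 related lists and 6 lists of cell markers or mitosis genes (rows, number of genes in brackets). Black bars are medians and red diamonds are genes in the extra interval; the members' median of 0.90 lies above the medians of the related lists and below those of the mitosis (1.22), erythroid (1.68) and neutrophil precursor (2.68) lists.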

How the data were processed

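Spleen poly(A) RNA of 18 mice was sequenced as strand-specific paired-end libraries, per the labels' protocols. The authors deposited raw counts of reads, as whole numbers per gene. Per the submitters' processing notes, HISAT2 2.1.0 and HTSeq 0.6.1 were among the tools and GRCm38 was the build, with roles not stated. How strand was handled in counting is not given in the sources used here. RPKM values as deposited equal counts divided by gene length and library total, which held for 11538 genes with a largest relative deviation of 8.5e-16. The 39 members and all lists were chosen with earlier results of these data known.

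Genes were filtered with filterByExpr by genotype (18634 kept), scaled by TMM and fitted in 1 edgeR 4.0.16 quasi-likelihood model (robust, R 4.3.3) with genotype and sex. Calls were made at a p below 0.05 after Benjamini-Hochberg adjustment over all genes tested. Another edgeR fit held sex within each genotype. Log2 fold changes carry standard errors, and CPM values use the TMM-scaled totals. Gene positions are from GENCODE vM21 on GRCm38. Per-library values were named for the member with the smallest p of each role and the 3 members with the largest p, and other genes named with values were chosen by role or after their values were seen. In the related lists, interval genes and the smallest p per list and direction were named. The fit was tested on simulated counts for Dp16 vs WT with 200 of 18634 genes changed. It called 50% of genes raised 1.5-fold and 90% of those raised 2-fold, and 3.42% of its calls were false. The real comparison called far more genes (3091 higher and 2462 lower), so these percentages hold for the simulated setting only. Alternatives were other scalings and filters, other terms and blocks, terms for marker scores, omission of libraries, limma 3.58.1 (voom, and trend on log2 RPKM with 0.1 added) and DESeq2 1.42.0. Over 45 pairs of libraries of 1 genotype, the chi-square divided by its degrees of freedom was 35.1 to 200, so none was counted as a copy of another.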

Additional observations from a re-analysis of the deposited data

Results flagged for a closer look

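In 4 of the 117 groups of 6 libraries read (39 members in 3 genotypes), 1 library lay far from the other 5, and chance alone flags about 1 in 20 such groups. Gins2 had 31.74 CPM in Dp16_2xIFNRs replicate 6, against 15.5 to 18.8 CPM in the other libraries of that genotype. Rfc5 had 42.93 CPM in WT replicate 2, against 24.1 to 29.9 CPM. Pold1 had 125.6 CPM in Dp16_2xIFNRs replicate 1, against 91.0 to 101 CPM. Tk1 had 134.9 CPM in Dp16 replicate 3, against 92.5 to 106 CPM. WT replicate 2, Dp16 replicate 3 and Dp16_2xIFNRs replicate 6 were also the libraries with the highest level of most members in their genotypes.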

How the results depend on the processing

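In 34 other fits (scalings, filters, blocks, terms for Gm42418 share and sample description, omission of each library, limma and DESeq2), 34 to 37 of the 39 members rose in Dp16 vs WT, 37 rose in Dp16_2xIFNRs vs WT, and none fell or was called in Dp16_2xIFNRs vs Dp16. Leaving out 1 library at a time gave 37 in both comparisons with WT, and 24 to 36 and 22 to 35 members without overlap, the higher values without WT replicate 2. Omission of a library cannot lower a count of members without overlap. With a term for the erythroid score, the neutrophil score or both, 0 members rose in either comparison, and the median was 0.19, 0.39 and 0.28 in Dp16 vs WT (0.20, 0.44 and 0.27 for Dp16_2xIFNRs). Of all 18634 genes, these fits called 83, 0 and 0 higher and 11, 0 and 1 lower in Dp16 vs WT. In Dp16_2xIFNRs vs WT they called 74, 0 and 0 higher and 6, 1 and 1 lower. With both scores Pola1 was at -0.35, Orc1 at -0.23 and Mcm10 at -0.16. The cause was not tested. Of the 67 related genes, 2 rose and 0 fell in Dp16 vs WT with the erythroid score and 0 of either with the neutrophil score or both, while 4 fell with upper quartile scaling, 5 with limma-trend on RPKM, 1 without the libraries over 4% Gm42418 and 0 with the description code as a block. A replicate block on the sample numbers left 37 members higher in both comparisons. The numbers are not known to pair animals: with genotype means taken out, the correlation across genes averaged 0.02 over the 18 pairs that share a number (lowest -0.13) and -0.004 over the others. The lowest count of a member in any library was 100, for Orc1, whose levels varied by 71.6% (coefficient of variation) among WT libraries.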
